A study of Mus musculus with 12 samples.

Results

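The 10 genes examined were Nfkb1, Nfkb2, Rel, Rela and Relb, which encode the subunits of NF-κB, and Nfkbia, Nfkbib, Nfkbie, Nfkbiz and Tnfaip3, which encode IκB proteins and A20 and are grouped here as inhibitors, although the product of Nfkbiz is also known as a co-activator. They were found by their symbols among the 55471 genes of the count table, each symbol matched 1 row, and all 10 were among the 18228 genes with enough counts to be tested. NF-κB is a family of transcription factors that work as dimers of the 5 subunits. In a resting cell the IκB proteins hold most dimers in the cytoplasm, and signals from Toll-like and cytokine receptors lead to phosphorylation and breakdown of IκB, after which the dimers enter the nucleus. NF-κB itself drives transcription of several of its own subunits and inhibitors, among them Nfkbia and Tnfaip3, and this feedback is a known feature of the response in dendritic cells.

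RNA-seq was available for bone marrow-derived dendritic cells (DCs) of adult female C57BL/6 mice, grown in the cytokine GM-CSF. All cells carried a retrovirus, which in shControl cells expressed a short hairpin RNA (shRNA) to the luciferase of fireflies and in shPpargc1b cells one to Ppargc1b, the gene of the mitochondrial co-activator PGC-1β, and were sorted on the human CD8 reporter of that virus. They were left unstimulated or received interferon-β (IFN-β), an antiviral cytokine, for 6 h, which gives 4 groups of 3 libraries. Nothing in the sources used here says that the 3 libraries of a group came from separate cultures or animals, so p-values measure the spread between these libraries, which may be technical, and the labels do not tell Ppargc1b hairpins apart. The labels number no replicates, so the numbers used here follow the order of deposit and only name a library within its group.

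The knockdown was partial. Ppargc1b stood at 33.4, 33.3 and 36.7 CPM (counts scaled to the effective size of the library) in unstimulated shControl and at 18.6, 19.3 and 20.3 CPM in unstimulated shPpargc1b libraries, and at 31.4, 23.6 and 28.4 CPM in shControl and 19.6, 15.5 and 20.9 CPM in shPpargc1b libraries with IFN-β. On the log2 scale Ppargc1b differed between the genotypes by -0.83 ± 0.10 in unstimulated cells (SE, adjusted p = 3.2e-05) and by -0.57 ± 0.11 after IFN-β (SE, adjusted p = 9.5e-04). IFN-β itself changed Ppargc1b by -0.31 ± 0.10 in shControl (SE, adjusted p = 0.0210) and by -0.06 ± 0.11 in shPpargc1b cells (SE, adjusted p = 0.705). Library totals were 49.9 to 77.7 M counts, and the scaling factors from the trimmed mean of M-values (TMM) were 1.07 to 1.09 without and 0.914 to 0.941 with IFN-β. With library totals as the scale, the tested genes had a median IFN-β change of -0.27 in shControl and -0.22 in shPpargc1b cells on the log2 scale. The DC marker Itgax had at least 49956 counts in every library. In bulk RNA a change in the number of cells of a type and a change of RNA per cell cannot be told apart.

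The members lie on 8 chromosomes of the GRCm38 assembly, and each is a spliced protein-coding gene. Because NF-κB acts on several of these genes, the 250 bases ahead of their transcription starts were searched for the κB motif GGGNNNNNCC on both strands, in RefSeq promoters of the same assembly, which matched 7 members (the exceptions were Nfkb1, Relb and Nfkbiz). At least 1 window held the motif for 6 of these 7 members, Nfkbib being the exception, and Nfkb2 and Tnfaip3 had more than 1 window each. Counted by window, 9 of the 10 windows of these members held the motif. The shares were 45.8% of all 32851 promoter windows and 76.0% of those with at least 60% G and C. The interferon-stimulated response element core TTTCNNTTTC was in none of their windows (2.98% of all windows), and the interferon-gamma-activated site TTCNNNGAA was in a window of Nfkb2 (7.02% of all windows). Such short motifs match often and a match is not a binding site. The windows of Nfkbia and Nfkbie are shown because both encode an IκB protein and both windows hold κB matches, while Nfkbie passed the threshold in the knockdown comparisons and Nfkbia did not, a difference between the genes that was not tested. The capitals mark κB matches on either strand, which overlap in the second run of capitals for Nfkbie.
Nfkbia promoter, chr12:55492648-55492897, minus strand: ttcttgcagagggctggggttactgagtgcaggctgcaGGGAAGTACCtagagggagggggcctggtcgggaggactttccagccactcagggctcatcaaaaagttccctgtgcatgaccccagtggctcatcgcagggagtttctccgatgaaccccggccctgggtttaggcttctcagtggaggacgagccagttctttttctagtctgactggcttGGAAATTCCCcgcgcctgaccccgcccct
Nfkbie promoter, chr17:45555450-45555699, plus strand: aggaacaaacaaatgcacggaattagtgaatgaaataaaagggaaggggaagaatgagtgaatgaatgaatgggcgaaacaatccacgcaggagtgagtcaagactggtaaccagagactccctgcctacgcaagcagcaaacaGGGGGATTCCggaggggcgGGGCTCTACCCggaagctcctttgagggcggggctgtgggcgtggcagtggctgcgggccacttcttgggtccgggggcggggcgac

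The level of the 10 transcripts per kilobase of exon set Nfkbia apart from the other members. In unstimulated shControl cells Nfkbia had 112 ± 2.79 CPM per kb (SD, n = 3), followed by Rel with 24.96 ± 0.671, Tnfaip3 with 24.03 ± 1.69 and Nfkbie with 23.8 ± 0.419 CPM per kb. The libraries of Tnfaip3 overlapped those of both Rel and Nfkbie. Nfkb1 had 17.2 ± 0.799, Rela 15.7 ± 0.464 and Nfkb2 15.2 ± 0.632 CPM per kb, and the last pair overlapped. The lowest were Relb with 10.5 ± 0.196, Nfkbib with 8.26 ± 0.471 and Nfkbiz with 6.75 ± 0.196 CPM per kb, with no overlap among them. In IFN-β-treated shPpargc1b cells Nfkbia was still the highest, with 128 ± 11.6 CPM per kb, and Nfkbiz the lowest, with 10.1 ± 1.47 CPM per kb. Counting error was small for these genes, since the fewest counts of any member in any library were 963, for Nfkbib.

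The group means rose in the same order in most members. In 8 of the 10 genes the mean CPM was lowest in unstimulated shControl, then in unstimulated shPpargc1b, then in IFN-β-treated shControl and highest in IFN-β-treated shPpargc1b cells, an order that 7.98% of all tested genes had. Rela and Nfkbia departed from it, with a lower mean in IFN-β-treated shPpargc1b than in IFN-β-treated shControl cells, although those libraries overlapped. In Nfkb2, Rel, Relb, Nfkbib and Nfkbie the libraries of neighbouring groups in this order did not overlap at any step. In Nfkb1 and Nfkbiz they overlapped between the IFN-β-treated groups, and in Tnfaip3 between unstimulated shPpargc1b and IFN-β-treated shControl cells. The share of all tested genes without overlap at any step was not counted, and the 7.98% refers to the means alone. With library totals as the scale the order held in 6 of the 10 genes (3.91% of all tested genes), since the means of unstimulated shPpargc1b cells then exceeded those of IFN-β-treated shControl cells in Relb and Tnfaip3. On that scale, among the 8 genes, the libraries of these same groups overlapped in Nfkb1, Nfkb2, Rel, Nfkbie, Nfkbiz and Tnfaip3 and were reversed without overlap in Relb, and only Nfkbib was apart at every step.

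**Figure D1:**
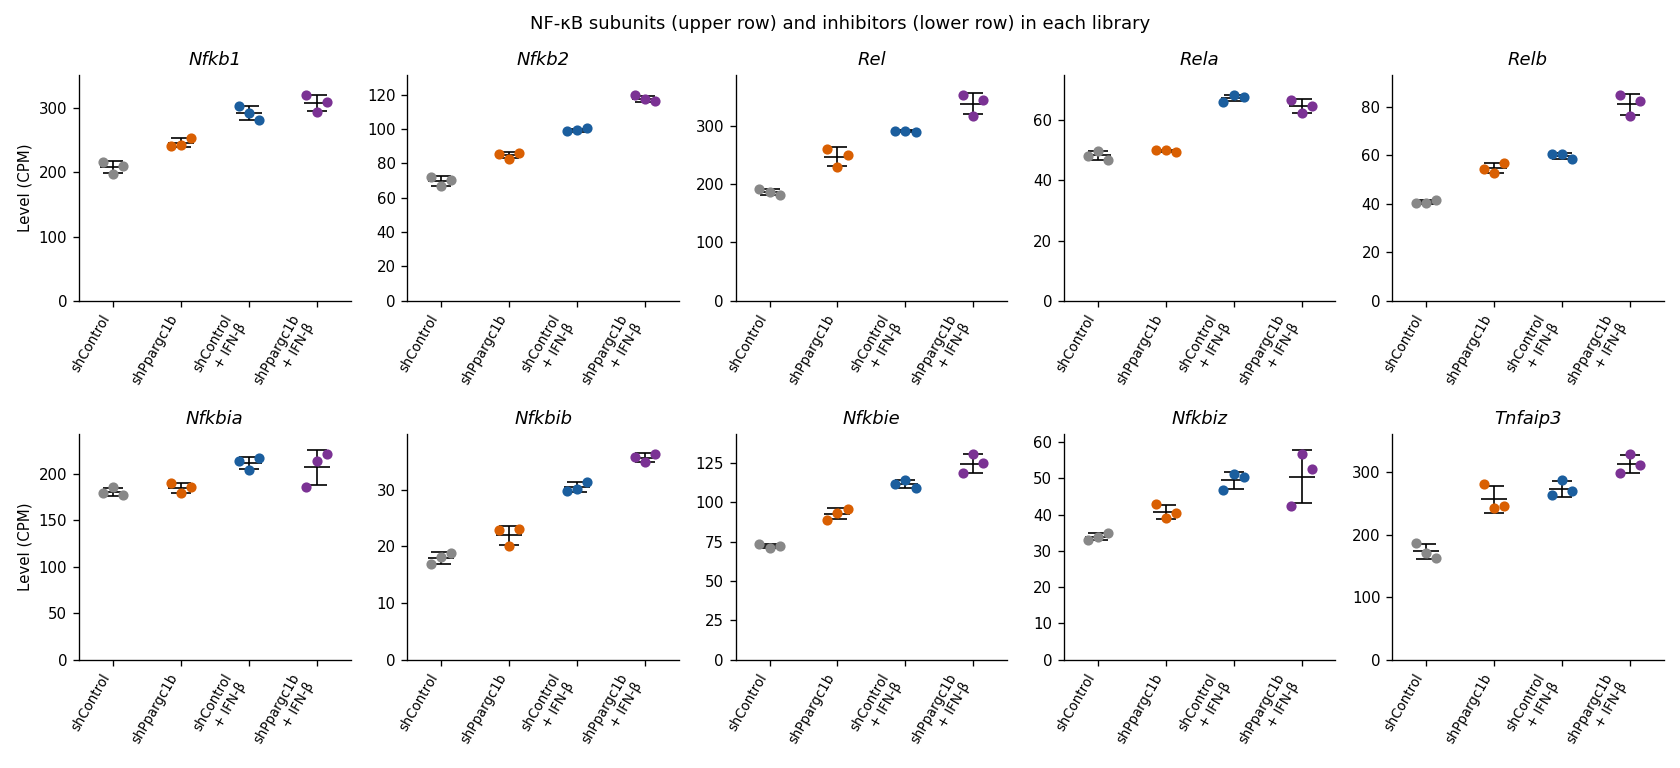
Level of each NF-κB subunit (upper row) and inhibitor (lower row), in CPM on a linear axis from 0, in the 3 libraries (points) of each of the 4 groups, with the mean and SD in black. The 3 unstimulated shPpargc1b libraries lie above the 3 unstimulated shControl libraries in every panel except Rela and Nfkbia. The share of all tested genes whose libraries separate in this way was not counted.

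To determine how loss of PGC-1β bears on the NF-κB system at steady state, shPpargc1b was compared with shControl in unstimulated cells. The transcripts of 4 subunits (Nfkb1, Nfkb2, Rel and Relb) and of 4 inhibitors (Nfkbib, Nfkbie, Nfkbiz and Tnfaip3) were higher in shPpargc1b cells, by log2 fold changes of 0.24 to 0.57. Rela and Nfkbia, which encode the principal transactivating subunit and the principal rapidly degraded IκB, did not pass the threshold. None was lower at an adjusted p under 0.05 in edgeR, none at an unadjusted p under 0.05, and none in DESeq2 or limma-voom. These 8 of 10 stand against 12.4% of all tested genes called higher and 11.1% called lower in this comparison. The median log2 fold change of the 10 was 0.29, against -0.0049 over all tested genes.

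With IFN-β present, 6 of the 10 genes passed the threshold in the comparison of shPpargc1b with shControl cells. Nfkb2, Rel and Relb among the subunits and Nfkbib, Nfkbie and Tnfaip3 among the inhibitors were higher in shPpargc1b cells, by log2 fold changes of 0.16 to 0.44. No member was lower in edgeR at an adjusted or an unadjusted p under 0.05, or in DESeq2 or limma-voom. The share called over all tested genes was 11.5% higher and 12.7% lower. The median log2 fold change of the 10 was 0.18, against -0.01 over all tested genes. The calls of Nfkbib, Nfkbie and Tnfaip3 were all lost without IFN-β-treated shControl replicate 1 or IFN-β-treated shPpargc1b replicate 3, which left 3 members, whereas Nfkb2, Rel and Relb passed under all 19 alternatives. The count was 4 without IFN-β-treated shControl replicate 3 or shPpargc1b replicate 2, and 5 without shControl replicate 2. It was 6 without IFN-β-treated shPpargc1b replicate 1, the library that was low in Nfkbia and Nfkbiz.

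IFN-β itself was followed by higher levels of all 10 members in both genotypes with TMM scaling. In shControl cells the log2 fold changes were 0.23 (Nfkbia) to 0.76 (Nfkbib), with a median of 0.55 against -0.03 over all tested genes, of which 23.7% were called higher and 24.6% lower. In shPpargc1b cells they were 0.16 (Nfkbia) to 0.70 (Nfkbib), with a median of 0.40 against -0.02, and 21.4% of all tested genes were called higher and 21.2% lower. Scaling by library totals left 9 members called in shControl and 7 in shPpargc1b cells, and there Nfkbia turned to -0.01 and -0.04, both above the median of all genes under that scaling. That scaling also moved the split of all calls in shControl cells from 4312 higher and 4481 lower to 2598 and 8294, and in shPpargc1b cells from 3895 and 3865 to 2340 and 7551. The comparisons share libraries: unstimulated shControl cells are the reference of both the knockdown and the IFN-β comparison, and the values of each are given side by side below.

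**Figure D2:**
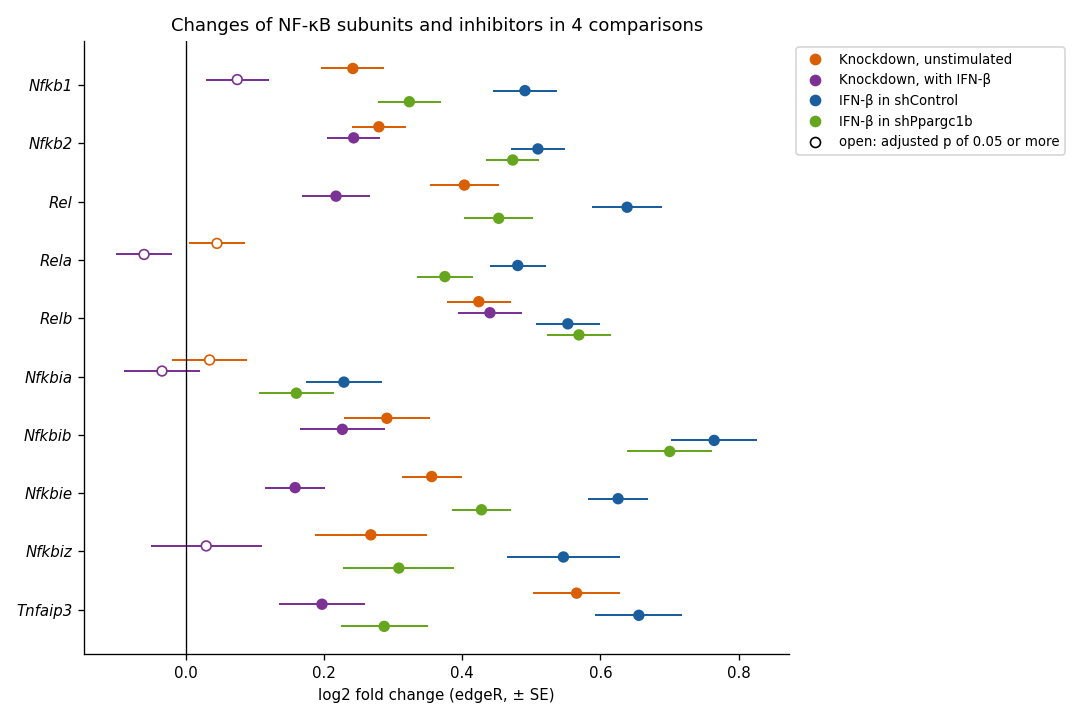
log2 fold change with its standard error (SE) for each member in the knockdown comparison without and with IFN-β and in the IFN-β comparison in each genotype, from edgeR with TMM scaling, with open points where the adjusted p was 0.05 or more. For every gene except Relb the IFN-β change in shControl cells is the rightmost point, and Relb has both knockdown points at 0.42 and 0.44.

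Nfkb1 (ENSMUSG00000028163, chromosome 3, 135584655 to 135691547, minus strand) encodes a precursor whose processed form pairs with RelA in the canonical dimer. It had 217, 198 and 209.7 CPM in the unstimulated shControl, 241, 242 and 254 CPM in the unstimulated shPpargc1b, 303, 292 and 282 CPM in IFN-β-treated shControl and 319.7, 294 and 309 CPM in IFN-β-treated shPpargc1b libraries. The genotypes were separate without IFN-β and overlapped with it. The log2 fold change of the knockdown was 0.24 ± 0.05 (SE, adjusted p = 0.00108) without and 0.07 ± 0.05 (SE, adjusted p = 0.270) with IFN-β. IFN-β changed the gene by 0.49 ± 0.05 (SE, adjusted p = 2.5e-07) in shControl and 0.32 ± 0.05 (SE, adjusted p = 3.1e-05) in shPpargc1b cells.

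Nfkb2 (ENSMUSG00000025225, chromosome 19, 46304320 to 46312385, plus strand) encodes the precursor that is processed in the noncanonical arm, where its product pairs with RelB. Its levels were 72.3, 66.6 and 70.5 CPM in the unstimulated shControl, 85.5, 82.6 and 86.02 CPM in the unstimulated shPpargc1b, 98.6, 99.1 and 100.3 CPM in IFN-β-treated shControl and 119.5, 117 and 116 CPM in IFN-β-treated shPpargc1b libraries. The 4 groups did not overlap. The change with the knockdown was 0.28 ± 0.04 (SE, adjusted p = 7.0e-05) without and 0.24 ± 0.04 (SE, adjusted p = 2.5e-04) with IFN-β, and the IFN-β change was 0.51 ± 0.04 in shControl and 0.47 ± 0.04 in shPpargc1b cells (adjusted p = 2.2e-08 and 6.8e-08). An antisense transcript, AC114539.1, shares 531 exon bases with Nfkb2 (11.6% of its exons) and had 5264 counts over all libraries against 64675 for Nfkb2. Whether counting used strand was not stated, so reads of the pair cannot be told apart in the shared stretch.

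Relb (ENSMUSG00000002983, chromosome 7, 19606217 to 19629438, minus strand), the partner of the Nfkb2 product and a regulator of DC maturation, had knockdown changes of like size without and with IFN-β. It stood at 40.5, 40.2 and 41.7 CPM in the unstimulated shControl and 54.6, 52.7 and 56.8 CPM in the unstimulated shPpargc1b libraries. With IFN-β it stood at 60.5, 60.5 and 58.6 CPM in shControl and 84.8, 76.3 and 82.4 CPM in shPpargc1b libraries. The groups did not overlap, and each shPpargc1b library was above all shControl libraries of the same treatment. The knockdown changed Relb by 0.42 ± 0.05 (SE, adjusted p = 8.6e-06) without and 0.44 ± 0.05 (SE, adjusted p = 6.5e-06) with IFN-β, folds of 1.34 and 1.36. IFN-β changed Relb by 0.55 ± 0.05 in shControl and 0.57 ± 0.05 in shPpargc1b cells (adjusted p = 7.9e-08 and 6.5e-08).

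Rel (ENSMUSG00000020275, chromosome 11, 23736847 to 23770970, minus strand) encodes c-Rel, a subunit abundant in lymphoid and myeloid cells. Its levels were 191, 187 and 181 CPM in the unstimulated shControl and 261, 229 and 250.1 CPM in the unstimulated shPpargc1b libraries, and 292, 290.5 and 288 CPM in shControl and 352, 317 and 343 CPM in shPpargc1b libraries with IFN-β. Neither pair of genotypes overlapped. With the knockdown Rel changed by 0.40 ± 0.05 (SE, adjusted p = 2.7e-05) without and 0.22 ± 0.05 (SE, adjusted p = 0.00471) with IFN-β. IFN-β changed Rel by 0.64 ± 0.05 in shControl and 0.45 ± 0.05 in shPpargc1b cells (adjusted p = 3.5e-08 and 2.4e-06).

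Rela (ENSMUSG00000024927, chromosome 19, 5637483 to 5648130, plus strand), the gene of the subunit RelA, moved with IFN-β and did not pass the threshold with the knockdown. It had 48.2, 49.8 and 46.9 CPM in the unstimulated shControl and 50.1, 50.1 and 49.4 CPM in the unstimulated shPpargc1b libraries. With IFN-β it had 66.1, 68.3 and 67.8 CPM in shControl and 66.9, 62.3 and 64.8 CPM in shPpargc1b libraries. The genotypes overlapped in both treatments, and all treated libraries were above all unstimulated ones. The knockdown change was 0.05 ± 0.04 (SE, adjusted p = 0.485) without and -0.06 ± 0.04 (SE, adjusted p = 0.320) with IFN-β, and the IFN-β change was 0.48 ± 0.04 in shControl and 0.37 ± 0.04 in shPpargc1b cells (adjusted p = 8.3e-08 and 1.9e-06).

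Nfkbia (ENSMUSG00000021025, chromosome 12, 55489410 to 55492647, minus strand) encodes IκBα, the inhibitor that is broken down within minutes of a canonical signal and resynthesised by NF-κB. Its levels were 179, 186 and 177 CPM in the unstimulated shControl and 190.02, 179 and 186 CPM in the unstimulated shPpargc1b libraries, and 213, 204 and 217 CPM in shControl and 186, 214 and 221 CPM in shPpargc1b libraries with IFN-β. The genotypes overlapped in both treatments, and replicate 1 of the treated shPpargc1b libraries was lower than the other two and fell among the unstimulated ones. The knockdown change was 0.03 ± 0.05 (SE, adjusted p = 0.720) without and -0.03 ± 0.05 (SE, adjusted p = 0.709) with IFN-β. The IFN-β change was 0.23 ± 0.05 (SE, adjusted p = 0.00258) in shControl and 0.16 ± 0.05 (SE, adjusted p = 0.0272) in shPpargc1b cells, and with library totals it was -0.01 and -0.04. The call in shPpargc1b cells was lost without replicate 2 of the unstimulated (adjusted p = 0.0902) or treated (0.0822) shPpargc1b libraries, without replicate 3 of the unstimulated (0.0569) or treated (0.147) ones, and with only the groups compared in the fit (0.0640). The exact two-sided permutation p of that comparison was 0.3, where 0.1 is the smallest that 3 libraries against 3 can give.

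Nfkbib (ENSMUSG00000030595, chromosome 7, 28758251 to 28767512, minus strand) encodes IκBβ, which is degraded more slowly. It had 16.9, 18.04 and 18.9 CPM in the unstimulated shControl, 22.9, 19.97 and 22.99 CPM in the unstimulated shPpargc1b, 29.8, 30.1 and 31.4 CPM in IFN-β-treated shControl and 35.8, 34.8 and 36.3 CPM in IFN-β-treated shPpargc1b libraries, with no overlap between groups. The knockdown change was 0.29 ± 0.06 (SE, adjusted p = 0.00299) without and 0.23 ± 0.06 (SE, adjusted p = 0.0129) with IFN-β, and the latter was lost without IFN-β-treated shControl replicate 1 (adjusted p = 0.0608) or replicate 2 (0.0604) or shPpargc1b replicate 3 (0.0618). IFN-β changed it by 0.76 ± 0.06 in shControl and 0.70 ± 0.06 in shPpargc1b cells (adjusted p = 5.6e-08 and 1.8e-07), the largest IFN-β changes of the 10 members in both genotypes. Nfkbib shares 42 exon bases (1.94% of its exons) with Sirt2 on the other strand, which had 66274 counts against 18376 for Nfkbib.

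Nfkbie (ENSMUSG00000023947, chromosome 17, 45555703 to 45563169, plus strand) encodes IκBε, an IκB that is itself induced by NF-κB. Its levels were 73.7, 71.2 and 72.2 CPM in the unstimulated shControl and 88.8, 93.4 and 95.6 CPM in the unstimulated shPpargc1b libraries, and 112, 114 and 109 CPM in shControl and 118, 131 and 125 CPM in shPpargc1b libraries with IFN-β. All 4 groups were separate. The knockdown change was 0.36 ± 0.04 (SE, adjusted p = 2.3e-05) without and 0.16 ± 0.04 (SE, adjusted p = 0.0136) with IFN-β. The second call was lost without IFN-β-treated shControl replicate 1 (adjusted p = 0.0502) or replicate 3 (0.0786), or without IFN-β-treated shPpargc1b replicate 2 (0.0859) or replicate 3 (0.0550). IFN-β changed Nfkbie by 0.63 ± 0.04 in shControl and 0.43 ± 0.04 in shPpargc1b cells (adjusted p = 7.9e-09 and 8.5e-07).

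Nfkbiz (ENSMUSG00000035356, chromosome 16, 55811375 to 55838899, minus strand) encodes IκBζ, a nuclear protein that binds NF-κB on chromatin and is needed for a group of secondary response genes. It had 32.9, 33.9 and 34.9 CPM in the unstimulated shControl and 42.9, 39.03 and 40.5 CPM in the unstimulated shPpargc1b libraries, which were separate. With IFN-β it had 46.9, 51.2 and 50.3 CPM in shControl and 42.3, 56.7 and 52.5 CPM in shPpargc1b libraries, and replicate 1 of the latter was below all the treated shControl libraries and the other two above them. In shPpargc1b against shControl cells the change was 0.27 ± 0.08 (SE, adjusted p = 0.0259) without and 0.03 ± 0.08 (SE, adjusted p = 0.836) with IFN-β. The first of these calls was lost without unstimulated shControl replicate 1 (adjusted p = 0.0852) or 2 (0.0622), or unstimulated shPpargc1b replicate 1 (0.0846) or 3 (0.0542). IFN-β changed Nfkbiz by 0.55 ± 0.08 (SE, adjusted p = 4.1e-05) in shControl and 0.31 ± 0.08 (SE, adjusted p = 0.00572) in shPpargc1b cells, and with library totals the latter was 0.10 (adjusted p = 0.282).

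Tnfaip3 (ENSMUSG00000019850, chromosome 10, 19000910 to 19015657, minus strand) encodes A20, a ubiquitin-editing enzyme that ends signalling upstream of IκB breakdown. Its levels were 187, 170.2 and 164 CPM in the unstimulated shControl and 282, 242 and 247 CPM in the unstimulated shPpargc1b libraries, and 264, 287 and 269.7 CPM in shControl and 299, 329 and 312 CPM in shPpargc1b libraries with IFN-β. The genotypes did not overlap in either treatment, and the highest unstimulated shPpargc1b library lay within the treated shControl libraries. The knockdown change was 0.57 ± 0.06 (SE, adjusted p = 1.0e-05) without IFN-β, the largest of the 10 members, and 0.20 ± 0.06 (SE, adjusted p = 0.0319) with it. The call with IFN-β was lost without IFN-β-treated shControl replicate 1 (adjusted p = 0.144) or 3 (0.122), or IFN-β-treated shPpargc1b replicate 2 (0.140) or 3 (0.0906). IFN-β changed Tnfaip3 by 0.66 ± 0.06 (SE, adjusted p = 3.8e-07) in shControl and 0.29 ± 0.06 (SE, adjusted p = 0.00156) in shPpargc1b cells, and with library totals the latter was 0.08 (adjusted p = 0.263).

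The knockdown and IFN-β raised most members, but not in the same proportion. The rise of the mean CPM with the knockdown in unstimulated cells, as a percentage of the rise with IFN-β in shControl cells, was 83.5% for Tnfaip3 and 73.1% for Relb. It was 57.9% for Rel, 51.5% for Nfkbie, 50.5% for Nfkb2, 45.003% for Nfkb1 and 44.5% for Nfkbiz. The lowest percentages were 32.1% for Nfkbib, 14.2% for Nfkbia and 8.09% for Rela. Both rises were measured from the same unstimulated shControl libraries, so these percentages are descriptions without a test. They depend on the scaling. With library totals they were 140% for Tnfaip3, 136% for Relb, 98.5% for Nfkb2, 97.5% for Rel, 90.1% for Nfkb1, 87.2% for Nfkbie, 81.9% for Nfkbiz, 48.6% for Nfkbib and 12.3% for Rela, and Nfkbia had no rise with IFN-β to compare with.

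Whether the knockdown acted differently with IFN-β than without it was tested by the interaction, the knockdown change with IFN-β minus that without. No member passed the threshold in edgeR, where 0.0603% of all tested genes were called higher and 0.669% lower. At an unadjusted p under 0.05, 4 members (Nfkb1, Rel, Nfkbie and Tnfaip3) were lower. The share of all tested genes at that looser threshold was not counted, so the 4 cannot be read against the shares above. DESeq2 called 1 member and limma-voom none. Tnfaip3 came closest, at -0.37 ± 0.09 (SE, adjusted p = 0.0734). It passed in DESeq2 (adjusted p = 0.00672), with every gene of at least 1 count in the fit (1.7e-05), with a term for each run of library codes (0.0246) and without IFN-β-treated shPpargc1b replicate 2 (0.0374), and over its other alternatives it was above 0.05. The interaction was -0.20 ± 0.06 for Nfkbie, -0.24 ± 0.11 for Nfkbiz, -0.19 ± 0.07 for Rel and -0.17 ± 0.06 for Nfkb1. For Relb it was 0.02 ± 0.07 and for Nfkb2 -0.04 ± 0.05, the values nearest 0, although the test was not made to show that they were equal between treatments.

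The unequal changes altered some proportions of the transcripts, which were computed in each library from CPM per kb of exon. The ratio of Nfkbia to Rela overlapped between the genotypes in both treatments. Its means were 7.13 ± 0.0497 in shControl and 7.08 ± 0.218 in shPpargc1b cells without IFN-β (SD, n = 3). With IFN-β they were 5.99 ± 0.245 and 6.11 ± 0.710. Each other pair below set a gene that passed the threshold with the knockdown against a gene that did not. The ratio of Relb to Rela was 0.664, 0.639 and 0.702 in unstimulated shControl and 0.862, 0.832 and 0.910 in unstimulated shPpargc1b libraries. With IFN-β it was 0.723, 0.701 and 0.683 in shControl and 1.003, 0.969 and 1.01 in shPpargc1b libraries. The shPpargc1b libraries were therefore above the shControl libraries in both treatments, and IFN-β-treated shPpargc1b libraries reached about equal levels of Relb and Rela per kb. The ratio of Nfkbia to Nfkbie, the rapidly degraded against the NF-κB-induced IκB, had means of 4.72 ± 0.182 in unstimulated shControl, 3.78 ± 0.229 in unstimulated shPpargc1b, 3.59 ± 0.186 in IFN-β-treated shControl and 3.14 ± 0.197 in IFN-β-treated shPpargc1b cells (SD, n = 3). It was thus lower with the knockdown in both treatments. Tnfaip3 to Nfkbia went the other way, from 0.214 ± 0.0158 to 0.309 ± 0.0185 without and from 0.288 ± 0.0215 to 0.339 ± 0.0225 with IFN-β.

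The summed level of the 3 classical IκB genes (Nfkbia, Nfkbib and Nfkbie) was also divided by that of the 5 subunits. Nfkbia was most of that sum, with 112 CPM per kb in unstimulated shControl cells against 23.8 for Nfkbie and 8.26 for Nfkbib. With the knockdown Nfkbia did not pass the threshold, while Nfkbib and Nfkbie were higher, so the ratio does not describe the IκB genes alike. The mean ratio was 1.72 ± 0.0524 in unstimulated shControl and 1.52 ± 0.0120 in unstimulated shPpargc1b cells, and 1.49 ± 0.0384 in shControl and 1.35 ± 0.137 in shPpargc1b cells with IFN-β (SD, n = 3). The unstimulated genotypes did not overlap. The treated genotypes also did not overlap, although the treated shPpargc1b libraries spread widely, at 1.19, 1.45 and 1.40, with the library that was low in Nfkbia the lowest. From CPM without division by length they overlapped, at 0.433, 0.430 and 0.449 in treated shControl and 0.360, 0.437 and 0.417 in treated shPpargc1b libraries. The order of the group means was the same with CPM in place of per-length levels and with Nfkbiz and Tnfaip3 counted among the inhibitors. These are ratios of transcripts, and the proteins, their breakdown and their place in the cell were not measured here.

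**Figure D3:**
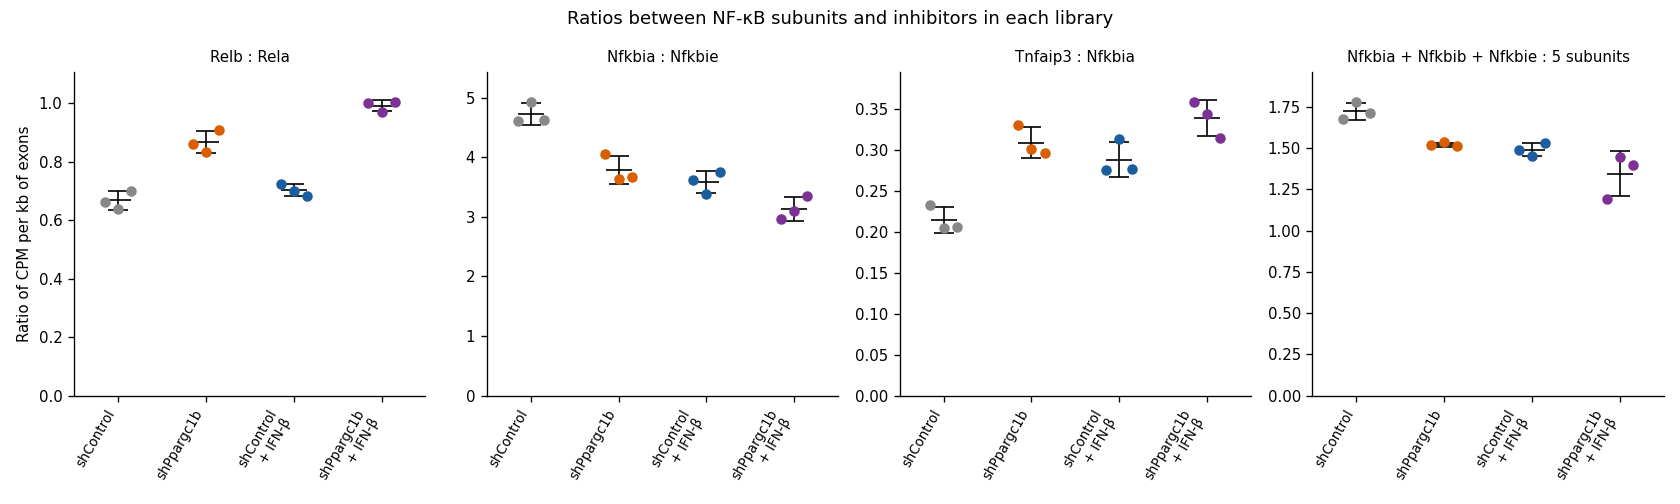
Ratios between members in each library (points), from CPM per kb of exons, on linear axes from 0 with the group mean and SD in black. Relb to Rela lies higher in shPpargc1b than in shControl libraries in both treatments, and Nfkbia to Nfkbie lies lower.

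The 10 members followed one another across the 12 libraries, which fall in 4 groups and so are not independent points. Pearson's r of log2 CPM over the 45 pairs was 0.622 to 0.981, with a median of 0.897, and the lowest value without Nfkbia was 0.737. Among all tested genes with a mean log2 CPM of at least 3, those most like each subunit were Stk39 (r = 0.986) and Smurf1 (r = 0.984) for Nfkb1, Traf1 (r = 0.994) and Cd52 (r = 0.992) for Nfkb2, Jak2 (r = 0.993) and Map4 (r = 0.993) for Rel, Fas (r = 0.997) and Plaat3 (r = 0.995) for Rela and Spsb1 (r = 0.993) and Sh3bp4 (r = 0.992) for Relb. For the inhibitors they were Gskip (r = 0.943) and Flywch1 (r = 0.935) for Nfkbia, Serpinb9 (r = 0.992) and Itm2c (r = 0.992) for Nfkbib, Scimp (r = 0.990) and Slc3a2 (r = 0.989) for Nfkbie, Cdk6 (r = 0.964) and Lilr4b (r = 0.963) for Nfkbiz and Olfr111 (r = 0.987) and Dgkh (r = 0.983) for Tnfaip3. Nfkbia had the weakest likeness to any gene. Traf1, the closest to Nfkb2, encodes an adaptor of the same pathway. These correlations describe the 12 libraries, which share the treatments, and say nothing of common control.

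The rest of the pathway was described with a list of 56 other genes, all of which were tested. In unstimulated cells 16 of them were higher and 8 lower in shPpargc1b cells, that is 28.6% and 14.3% against 12.4% and 11.1% of all tested genes, and the median change was 0.03 on the log2 scale. The adaptors, ligases and receptors of the noncanonical arm and the TRAF-cIAP group stood at 8 higher and 1 lower of 11. Among them Cd40, a receptor that DCs use to receive T cell help, went from 4.01 ± 0.420 to 6.78 ± 1.08 CPM (SD, n = 3), a change of 0.76 ± 0.11 (SE, adjusted p = 1.4e-04). The deubiquitinases and partners of A20 stood at 6 higher and 2 lower of 11, among them Otud7b, a deubiquitinase of the pathway, which rose by 0.88 ± 0.07 (SE, adjusted p = 4.3e-07). Tnf, a cytokine that both activates and is made through NF-κB, rose from 84.7 ± 1.94 to 152 ± 10.1 CPM, by 0.85 ± 0.07 (SE, adjusted p = 5.4e-07). Of 7 genes of the IκB kinase (IKK) complex and related kinases 1 was lower and 6 did not pass, and of 13 TAK1 and receptor-proximal genes 2 were lower and 11 did not pass. Among the genes that fell were Card9, an adaptor of myeloid cells (-0.35), and Irak4, a kinase of the Toll-like receptor pathway (-0.24).

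With IFN-β the knockdown comparison had 6 of the 56 genes higher and 15 lower, that is 10.7% and 26.8% against 11.5% and 12.7% of all tested genes, with a median of -0.03. Map3k14, which encodes the kinase NIK of the noncanonical arm, was higher by 0.58 ± 0.10 (SE, adjusted p = 5.7e-04), Otud7b by 0.57 ± 0.07 and Tnf by 0.39 ± 0.07. Among the lower genes were Ikbke, an IKK-related kinase (-0.34), and Tnfrsf1b, a TNF receptor (-0.29). Of the 7 IKK and related kinases 4 were lower, and of the 13 TAK1 and receptor-proximal genes 5 were lower. The noncanonical and TRAF-cIAP group stood at 3 higher and 1 lower of 11, with a median of 0.02. The deubiquitinases and partners of A20 stood at 1 higher and 2 lower of 11.

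IFN-β in shControl cells raised 38 of the 56 genes and lowered 4, and in shPpargc1b cells it raised 34 and lowered 5, with medians of 0.29 and 0.20, where 23.7% and 21.4% of all tested genes were called higher and 24.6% and 21.2% lower. In both genotypes the largest rises were those of Usp18, an interferon-induced protease (4.11 in shControl and 3.55 in shPpargc1b cells), Cd40 (3.999 and 3.23) and Rnf31, the catalytic subunit of the linear ubiquitin ligase (1.58 and 1.36). The largest falls were in Card9 (-0.51 and -0.35), Irak1 (-0.28 and -0.31) and Ikbkg, the regulatory subunit of IKK (-0.24 and -0.27). All values are log2 fold changes with TMM scaling.

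Known NF-κB target genes were taken from a list of 25, of which 24 were tested (Csf2 had too few counts). The study names inflammatory genes from these same libraries, so the direction of this list is not independent evidence. In unstimulated cells 16 of the 24 were higher in shPpargc1b cells and the other 8 did not pass (median log2 fold change 0.46), and with IFN-β 12 were higher and 1 lower (median 0.27). Of all tested genes 12.4% were called higher and 11.1% lower without IFN-β, and 11.5% and 12.7% with it. The chemokine Ccl5 rose from 22.5 ± 0.257 to 62.3 ± 8.81 CPM in unstimulated cells, by 1.47 ± 0.10 (SE, adjusted p = 8.5e-08). Ccl22, a chemokine of mature DCs, rose by 1.11 ± 0.09 and Plau, the urokinase gene, by 1.06 ± 0.14. With IFN-β the largest rises were in Ccl22 (1.28), Plau (1.07) and the maturation marker Cd83 (1.04), and Irf1, which is also a direct interferon target, was lower (-0.34). IFN-β raised 17 targets in shControl cells and the other 7 did not pass, the rises being led by Nos2 (2.93), Ccl5 (2.41) and Irf1 (2.32). In shPpargc1b cells it raised 18, led by Vcam1 (2.25), Irf1 (2.06) and Nos2 (1.78), and lowered Il1b (-0.48) and Cxcl2 (-0.33). Among all tested genes IFN-β raised 23.7% and lowered 24.6% in shControl cells, and raised 21.4% and lowered 21.2% in shPpargc1b cells.

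**Figure D4:**
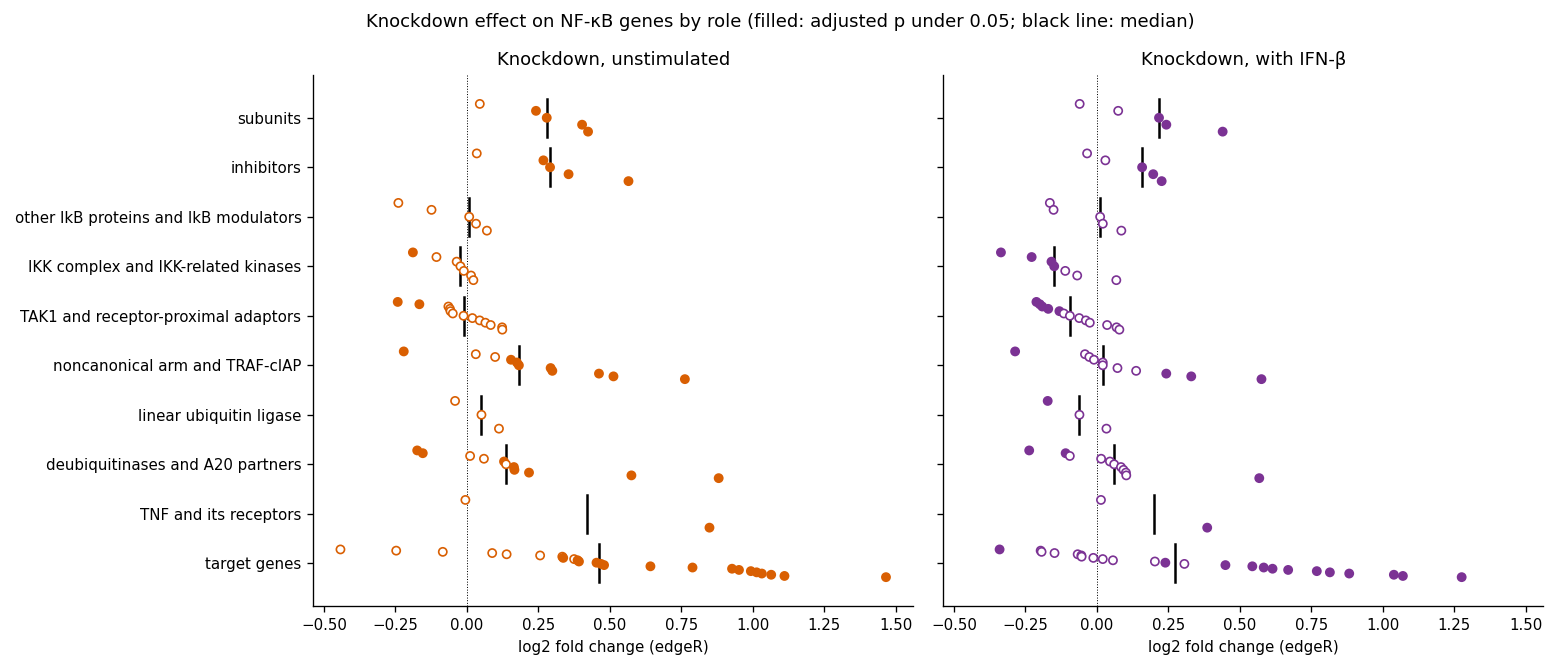
log2 fold change of shPpargc1b against shControl for tested genes of the roles shown, without (left) and with (right) IFN-β, with filled points at an adjusted p under 0.05 and a black line at the median of each group. Subunits and inhibitors have medians right of 0 in both panels, and the IKK and related kinases have a median of -0.02 on the left and -0.15 on the right.

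Some markers of several cell types moved with the genotype. The shares of all tested genes called in shPpargc1b cells were 12.4% higher and 11.1% lower without IFN-β, and 11.5% and 12.7% with it. Of 9 DC markers, 4 (Itgax, Flt3, Zbtb46 and Ccr7) were higher in shPpargc1b cells in both treatments and 5 did not pass, and the summed level was 4478 to 5301 CPM in the unstimulated shControl and 5167 to 5970 CPM in the unstimulated shPpargc1b libraries, and 4821 to 5833 and 5661 to 6506 CPM with IFN-β. The macrophage markers went the other way, with 3 of 8 lower without and 4 of 8 lower with IFN-β, and sums of 2283 to 2417 and 2029 to 2086 CPM without and 2833 to 3045 and 2405 to 2596 CPM with it. Ccr7, a receptor of mature migratory DCs, rose by 1.32 without and 1.36 with IFN-β, and the macrophage gene Mrc1 fell by 1.51 and 1.42 on the log2 scale. The neutrophil markers, of which S100a8 was higher in both treatments and 7 of 8 did not pass, summed to 39.5 to 87.2 CPM in the unstimulated shControl and 85.7 to 148 CPM in the unstimulated shPpargc1b libraries, and to 36.7 to 92.3 and 82.9 to 155 CPM with IFN-β. The neutrophil gene Ly6g had 14 to 58 counts a library. The 7 mast cell or basophil markers, of which Tpsb2 and Fcer1a were at 0 in some libraries, summed to 2.78 to 9.85 CPM in the unstimulated shControl and 7.30 to 12.4 CPM in the unstimulated shPpargc1b libraries, and to 7.15 to 14.5 and 10.5 to 17.9 CPM with IFN-β. Of the 6 tested, Gata2, which is also a factor of blood progenitors, was higher in shPpargc1b cells, by 1.64 in the unstimulated (adjusted p = 1.2e-05) and 1.47 in the treated libraries (adjusted p = 5.7e-05), and Hdc by 0.66 in the unstimulated ones (adjusted p = 0.0251). The 6 lymphocyte markers (among them Cd3e, Cd3g and Ncr1 at 0 in some libraries) and the 4 erythroid markers (each at 0 in some) summed to under 1 CPM in every library. The 5 proliferation genes were at 259 to 340 and 174 to 273 CPM without IFN-β and at 219 to 249.1 and 147 to 224 CPM with it, and of these Mki67 was lower in unstimulated shPpargc1b cells (-0.53, adjusted p = 0.0137) and the other four did not pass, nor did any with IFN-β. The part of these shifts in the values of the NF-κB genes was not tested.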

How the data were processed

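RNA-seq of 12 libraries of mouse bone marrow-derived DCs was used, 3 in each of the 4 groups given by the labels, which carry no replicate numbers. Per the labels and the study's methods, the authors depleted ribosomal RNA, trimmed reads with Trim Galore (0.6.0 in the submitters' processing notes), mapped them to mm10 (GRCm38) with STAR (2.7.8a in those notes, while the methods name another release) and counted uniquely mapped read pairs per GENCODE gene. The deposited values were raw counts with no normalization or pooling. Whether counting used strand was not given in the sources used here. All 12 value columns were used.

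Genes were kept by filterByExpr (minimum count 10, minimum total 15), which left 18228 of 55471 genes with 99.96% of the counts. All 12 libraries entered a single model with a mean for each group and TMM scaling in edgeR 4.0.16 (R 4.3.3), which the study's methods also name. The quasi-likelihood F-test was applied to each contrast, with Benjamini-Hochberg adjustment over all genes tested and a threshold of 0.05. Every adjusted p-value comes from this test unless another tool is named. The scripts were tested on simulated data. Levels were CPM on effective library sizes, divided by kilobases of merged exons (GENCODE M21) where genes are compared. Single values were also compared by exact two-sided permutation. Correlations used log2 CPM with a prior count of 2. Promoters were RefSeq windows of GRCm38.p6, trimmed to the 250 bases ahead of the start. Protein sequences were not used here.

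The members and gene lists were chosen with earlier results of these data known. All 10 members are named. Other pathway and target genes are the 3 largest rises and falls past the threshold whose mean log2 CPM reached 1 (some genes of the lists are counted but not reported here), and the like genes are the closest pair by r for each member. Markers were named after their values were seen. Alternatives were RLE size factors, library totals, DESeq2 1.42.0, limma-voom (limma 3.58.1), every gene with at least 1 count, the compared groups alone, a term for each run of library codes, and leaving out each library.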

Additional observations from a re-analysis of the deposited data

Results flagged for a closer look

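No member of the NF-κB group passed the interaction test, and 3 genes of the surrounding lists did, where the knockdown changed them differently with IFN-β than without it. Ccl5 had an interaction of -0.85 ± 0.13 (SE, edgeR adjusted p = 0.00940), from a knockdown change of 1.47 without to 0.61 with IFN-β, and its level in unstimulated cells went from 22.5 ± 0.257 to 62.3 ± 8.81 CPM against 120.05 ± 5.81 to 184 ± 24.1 CPM with IFN-β (SD, n = 3). Cd40 had an interaction of -0.77 ± 0.14 (adjusted p = 0.0214), from 0.76 without to -0.01 with IFN-β, where its level was 64.2 ± 4.65 CPM in shControl and 63.8 ± 4.23 CPM in shPpargc1b cells. Tnf had an interaction of -0.46 ± 0.10 (adjusted p = 0.0408), from 0.85 to 0.39. All 3 knockdown changes were therefore smaller on the log2 scale in cells that had received IFN-β. In CPM the difference between the means of Ccl5 was larger with IFN-β than without it.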

How the results depend on the processing

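Of 940 values of member changes under the alternatives, 904 kept their direction and their side of the threshold. The labels give no replicate numbers that could pair libraries across groups. The nearest fit to a paired one, with a term for each run of 4 consecutive library codes, changed 1 member call, that of Tnfaip3 in the interaction. Over 18 pairs of libraries in the same run of library codes the correlation of deviations was 0.0276 to 0.146, and 12 of 12 libraries were closest to their own run, which is a hint from the data and not the design.

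Leaving out single libraries, the members called higher numbered 3 to 6 in the knockdown comparison with IFN-β. In that comparison Nfkbia ranged from -0.0988 to 0.0251 and Nfkbiz from -0.0726 to 0.129. In the interaction Nfkb2 ranged from -0.0630 to 0.0148 and Relb from -0.0307 to 0.0627, members lower numbered 0 to 1, and all genes 4 to 56 higher and 32 to 215 lower, against 11 and 122.

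With library totals, IFN-β called 2598 genes higher and 8294 lower in shControl cells (4312 and 4481 with TMM) and 2340 and 7551 in shPpargc1b cells (3895 and 3865), and Nfkbia reversed to -0.0108 and -0.0439. This scaling also moved 36 of 40 member levels by more than their SD. The interaction then had 17 genes higher and 67 lower. It had 84 and 365 in DESeq2, 103 and 422 with every gene of at least 1 count, and 86 and 339 with the run term, and in each of these 3 fits 1 member, Tnfaip3, was lower. The cause was not tested. The IκB to subunit ratio was 0.490, 0.440, 0.437 and 0.405 from CPM and 2.09, 1.95, 1.88 and 1.73 with Nfkbiz and Tnfaip3 included (unstimulated shControl, unstimulated shPpargc1b, treated shControl, treated shPpargc1b). Each member had 963 counts or more in every library, and the member values rest on 3 libraries a group. Whether depth limited them was not tested.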
